A study of Mus musculus with 10 samples.

Results

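Oxidative phosphorylation is the last stage of respiration. Complexes I to IV of the inner mitochondrial membrane pass electrons from NADH and succinate to oxygen and pump protons, and complex V, the ATP synthase, uses the proton gradient to make ATP. Most subunits are encoded in the nucleus and imported, while a small core of complexes I, III, IV and V is encoded in mitochondrial DNA. Activated CD8 T cells run this pathway beside glycolysis, and the build-up of mitochondria is part of their growth program. The subunit genes were taken by symbol: Ndufa, Ndufb, Ndufc, Ndufs and Ndufv, Uqcr, Cox4i and Cox5 to Cox8, Atp5, the mt-Nd, mt-Co, mt-Cytb and mt-Atp genes, Sdha to Sdhd and Cyc1, without assembly factors and symbols marked as pseudogenes, and with at least 100 counts summed over 10 libraries. This gave 92 genes of the 55359 identifiers counted, 80 nuclear and 12 mitochondrial, and all 92 entered the test.

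The nuclear members comprised 36 genes of complex I (NADH dehydrogenase), all 4 of complex II (succinate dehydrogenase), 9 of complex III (the cytochrome bc1 complex), 14 of complex IV (cytochrome c oxidase) and 17 of complex V. Ndufa4 was placed with complex IV, to which it is now assigned, and the group of complex V includes Atp5s, a coupling factor that is not a structural subunit. The mitochondrial members comprised 7 genes of complex I, 1 of complex III, 3 of complex IV and 1 of complex V. Another 12 genes fell below the count minimum, among them the tissue-restricted isoforms Cox4i2 with 15 counts, Cox6a2 with 82, Cox8b with 1 and Ndufa4l2 with 1, and mt-Atp8 with 26 counts.

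The cells came from pmel-1 mice, whose CD8 T cells carry a transgenic receptor for gp100, an antigen of melanoma. In every group, splenocytes were stimulated with hgp100 for 48 h and then held in hIL-2 for 48 h more. NoEp cells were then not electroporated and carry the label WT. Mock cells were electroporated, and no label names the mRNA used in them. The remaining groups were electroporated with DRIL18 mRNA, with scIL-12 mRNA (here IL12) or with both (here mixture). DRIL18 mRNA codes for a form of interleukin-18 and scIL-12 mRNA for a single-chain interleukin-12. In Mock and these groups RNA was taken 24 h after electroporation, and no collection time is recorded here for NoEp. Each group had 2 libraries, called biological replicates, and no label says that they came from separate mice, so p-values here reflect the spread of these libraries, which may be technical.

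Totals ran from 31281944 to 35062545 counts per library. The 7 CD8 T cell marker genes summed to between 2310 and 3590 CPM (counts scaled to library size with TMM factors) and each was present in every library. They summed to 3350 to 3370 CPM in Mock, 3180 to 3190 in DRIL18, 2770 to 2860 in IL12 and 2310 to 2320 in the mixture. The 5 B cell markers summed to 18.5 to 19.9 CPM in Mock, 22.1 to 24.6 in DRIL18, 14.6 to 16.1 in IL12 and 23.9 to 24.9 in the mixture, and no library had more than 25.6. The 6 myeloid and dendritic markers stayed at or below 2.83 CPM, the 2 CD4 T cell markers at or below 7.19, the 2 NK markers at or below 0.237 and the 3 erythroid markers at or below 0.0941. These levels moved with the groups, and their part in the results below was not tested. In bulk RNA, fewer cells of a type and less RNA per cell cannot be told apart.

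The nuclear and the mitochondrial subunit genes were first compared by their summed counts. The summed counts of the 80 nuclear members made up 0.914% and 0.879% of all counts in NoEp, 0.950% and 0.941% in Mock, 1.035% and 1.031% in DRIL18, 1.020% and 1.013% in IL12, and 1.050% and 1.030% in the mixture. Both libraries of each mRNA group thus lay above both Mock libraries, and both Mock libraries above both NoEp libraries. The 12 mitochondrial members made up 1.949% and 2.083% in NoEp, 2.002% and 2.143% in Mock, 1.945% and 2.035% in DRIL18, 2.212% and 1.998% in IL12, and 1.710% and 1.941% in the mixture. Both mixture libraries lay below every other library, and the IL12 libraries lay on either side of both Mock libraries. On TMM-scaled library sizes the mixture was at 1.75% and 1.98%, and its second library then lay within the range of Mock, 1.97% to 2.10%. On that scale the 12 genes summed to 19700 and 21000 CPM in Mock and 17500 and 19800 in the mixture. mt-Co1 alone went from a mean of 9290 CPM in Mock to 7570 in the mixture. Of the 12 genes, 3 had a positive and 9 a negative log2 fold change in the mixture against Mock. The ratio of nuclear to mitochondrial counts was 0.475 and 0.439 in Mock and 0.614 and 0.531 in the mixture, with DRIL18 at 0.532 and 0.506 and IL12 at 0.461 and 0.507. These sums weigh genes by their counts. mt-Co1 alone had 2956663 counts over the 10 libraries, while mt-Co2, mt-Co3, mt-Atp6, mt-Nd3 and mt-Nd4l had 3544 or fewer each. On TMM-scaled sizes Atp5b went from a mean of 1180 CPM in Mock to 1780 in the mixture. The nuclear sum went from 9330 and 9240 CPM to 10700 and 10500, and 58 of the 80 genes had a positive log2 fold change. No test was made of these sums.

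**Figure D1:**
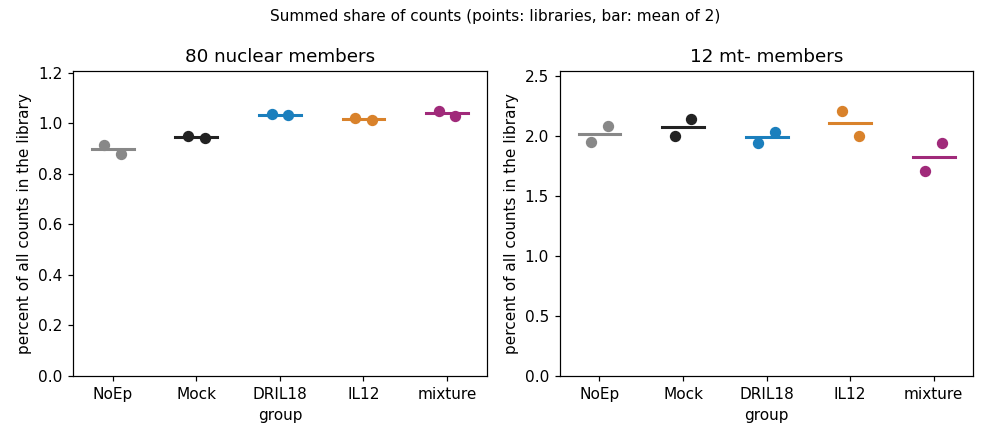
Share of all counts (percent, y axis from 0) taken by the 80 nuclear members (left) and the 12 mitochondrial members (right) in each group (x axis); points are libraries and bars the mean of 2. The nuclear share lies between 1.013% and 1.050% in the 6 libraries with cytokine mRNA and between 0.941% and 0.950% in Mock, while the mitochondrial shares of NoEp, Mock, DRIL18 and IL12 overlap and those of the mixture, 1.710% and 1.941%, are the lowest.

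Gene by gene, each comparison was tested with edgeR's quasi-likelihood test over 15777 genes, and a gene counts as higher or lower at a Benjamini-Hochberg adjusted p under 0.05. With DRIL18 against Mock, 31 of 80 nuclear members were higher and 1 was lower, where 24.3% of all tested genes were called, 12.2% higher and 12.1% lower. The median log2 fold change of the nuclear members was 0.11 against 0.004 over all tested genes. Of the 12 mitochondrial members 0 were called by edgeR or DESeq2 and 1 by limma-voom (3 at an unadjusted p under 0.05 in edgeR), and their median was -0.021. The nuclear count fell to 20 called members without Mock replicate 1, 16 without Mock replicate 2, 18 without DRIL18 replicate 1 and 20 without DRIL18 replicate 2, all of them higher. In the same comparison 1 mitochondrial member was called, as lower, without NoEp replicate 2 and without any 1 of the 4 IL12 and mixture libraries.

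With IL12 against Mock, 57 nuclear members were higher and 2 lower, where 46.6% of all tested genes were called, 23.0% higher and 23.6% lower. Their median log2 fold change was 0.20 against -0.007 over all tested genes. Of the mitochondrial members 5 were higher and none lower, with a median of 0.17. Without any scaling beyond library totals, 38 nuclear members were higher and 5 lower, the nuclear median was 0.115, and 1 mitochondrial member was called. All tested genes then split into 2641 higher and 4873 lower, in place of 3635 and 3721. The mitochondrial count was 2 without Mock replicate 1, 3 without IL12 replicate 1 and 8, of which 7 higher, without IL12 replicate 2.

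With the mixture against Mock, 42 nuclear members were higher and 8 lower, where 63.9% of all tested genes were called, 32.0% higher and 31.9% lower. The share of nuclear members called in either direction, 62.5%, was thus near that of all genes, while the split was not. Their median was 0.12 against -0.002 over all tested genes, with a range from -1.14 to 3.21. Of the mitochondrial members 1 was higher and 2 lower, with a median of -0.10. Without scaling, the split was 37 higher and 18 lower among nuclear members and 0 higher and 5 lower among mitochondrial members. All tested genes then split into 4539 higher and 5523 lower, with a median of -0.06. The column names of both mixture libraries carry a mark, bis, that neither Mock library carries and that no label explains. DRIL18 replicate 2, IL12 replicate 2 and both NoEp libraries carry it too. With this mark as a covariate, all tested genes split into 4236 higher and 4251 lower, in place of 5054 and 5027. Without Mock replicate 1, 1 mitochondrial member was called.

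**Figure D2:**
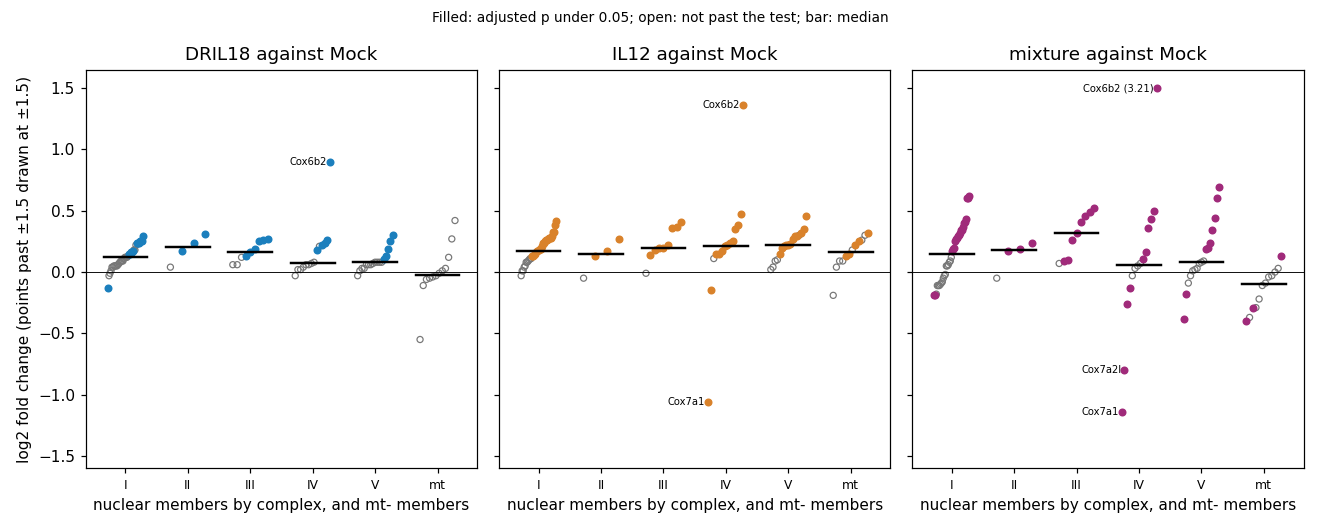
Log2 fold change against Mock (y axis) of the nuclear members by complex and of the mitochondrial members (x axis) for DRIL18, IL12 and the mixture; each point is a gene, filled where the adjusted p is under 0.05, and the bar is the median. In the mixture the medians run from 0.32 in complex III to -0.10 for the mitochondrial members, and Cox6b2 (3.21, drawn at the edge), Cox7a1 and Cox7a2l stand apart from the rest of complex IV.

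Complex I receives electrons from NADH. Of its 36 nuclear genes, 12 were higher and 1 lower with DRIL18, 23 higher and none lower with IL12, and 18 higher and 2 lower with the mixture. The shares called were 36.1%, 63.9% and 55.6%, against 24.3%, 46.6% and 63.9% of all tested genes. In the mixture the share called was thus below that of all genes. Ndufa12, an accessory subunit, was at 49.4 and 45.4 CPM in Mock, 55.2 and 57.4 in DRIL18, 60.7 and 54.7 in IL12 and 70.7 and 75.4 in the mixture. Each cytokine mRNA group lay above Mock, and the mixture above every other group (log2 fold change against Mock 0.62 ± 0.06 SE, adjusted p 5.16e-11). Mock itself lay above NoEp at 40.0 and 37.6 CPM (0.29 ± 0.06, adjusted p 0.00306), a call lost without NoEp replicate 2 (0.24, adjusted p 0.0917) or Mock replicate 1 (0.23, adjusted p 0.127). The DRIL18 rise of Ndufa12 (0.25) missed the threshold without Mock replicate 2 (0.19, adjusted p 0.0785). Ndufab1, which is also the acyl carrier protein of mitochondrial fatty acid synthesis, was at 35.4 and 39.8 CPM in Mock, 54.5 and 46.1 in IL12 and 60.1 and 53.9 in the mixture. Its rise was 0.42 ± 0.07 with IL12 (adjusted p 1.02e-05) and 0.60 ± 0.07 with the mixture (adjusted p 5.53e-09), and its IL12 and mixture libraries overlap.

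The members of complex I that fell in the mixture were Ndufb7 and Ndufb11, both accessory subunits of the membrane arm. Ndufb7 was at 94.5 and 95.4 CPM in Mock, 87.6 and 86.2 in DRIL18, 95.2 and 96.2 in IL12 and 82.0 and 85.0 in the mixture (-0.19 ± 0.04, adjusted p 0.000385). It is also the nuclear member that fell with DRIL18 (-0.13), a call that was lost when any Mock or DRIL18 library was left out. Ndufb11 was at 89.4 and 81.0 CPM in Mock, 87.6 and 92.7 in IL12 and 73.9 and 75.5 in the mixture (-0.19 ± 0.05, adjusted p 0.00183), and this call was lost without Mock replicate 1 (-0.12, adjusted p 0.113).

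Complex II oxidises succinate and has no mitochondrially encoded subunit. Sdhb, its iron-sulfur subunit, and the membrane anchors Sdhc and Sdhd were higher in each cytokine mRNA group. Without scaling the IL12 calls of Sdhb (0.087, adjusted p 0.073) and Sdhc (0.040, adjusted p 0.53) were lost. Sdhb was at 142 and 134 CPM in Mock, 162 and 163 in DRIL18, 156 and 155 in IL12 and 167 and 159 in the mixture (0.24 ± 0.04, adjusted p 4.28e-06). Sdhd was at 136 and 133 CPM in Mock, 167 and 165 in DRIL18, 164 and 160 in IL12 and 155 and 147 in the mixture, so the mixture lay between Mock and the single mRNAs (0.17 ± 0.04 against Mock, adjusted p 0.000392). Sdhc rose by 0.17, 0.13 and 0.19 with DRIL18, IL12 and the mixture, and each of these calls was lost without Mock replicate 1 (0.11, 0.067 and 0.13). Its IL12 call was also lost with DESeq2 (adjusted p 0.0613), with the mark bis as a covariate (0.0668) and without either IL12 library. Its DRIL18 call was also lost without either DRIL18 library. The flavoprotein Sdha, the most abundant of the 4 by CPM, was at 293 and 279 in Mock and 282 and 271 in the mixture, with no call against Mock in any cytokine mRNA group. Without scaling it was called lower with IL12 (-0.13, adjusted p 0.00236) and the mixture (-0.11, adjusted p 0.00903).

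Complex III passes electrons from ubiquinol to cytochrome c. Its 9 nuclear genes had the highest median of the 5 complexes in the mixture (0.32), with 8 higher and none lower. None was lower with DRIL18 (6 higher) or IL12 (8 higher). The shares called with DRIL18, IL12 and the mixture were 66.7%, 88.9% and 88.9%, against 24.3%, 46.6% and 63.9% of all tested genes. Uqcrb, which binds ubiquinone, was at 44.3 and 42.8 CPM in Mock, 52.9 and 51.1 in DRIL18, 49.0 and 52.3 in IL12 and 62.9 and 62.4 in the mixture (0.52 ± 0.05, adjusted p 6.64e-10). The mixture libraries were the highest and those of the single mRNAs lay between them and Mock. Uqcrq, a small subunit near cytochrome b, was at 72.4 and 73.3 CPM in Mock, 78.1 and 74.2 in DRIL18, 94.6 and 98.4 in IL12 and 101 and 104 in the mixture (0.49 ± 0.05, adjusted p 9.95e-11). Its IL12 level was close to that of the mixture (mixture against IL12 0.09 ± 0.05, adjusted p 0.115). The catalytic Rieske protein Uqcrfs1 (0.10) and the core protein Uqcrc1 (0.09) passed the test in the mixture by a small margin, with adjusted p 0.0457 and 0.0424. Both calls were lost when either mixture library, Mock replicate 2 or either DRIL18 library was left out, and that of Uqcrfs1 also without Mock replicate 1. Both were lost without scaling (0.040 and 0.030, adjusted p 0.414 and 0.5) and with no filter (adjusted p 0.0603 and 0.0592). DESeq2 did not call Uqcrfs1 (adjusted p 0.0558), and Uqcrc1 was not called with the mark bis as a covariate (0.107).

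Complex IV reduces oxygen, and its nuclear genes spread the most. Of 14, 5 were higher and none lower with DRIL18, 11 higher and 2 lower with IL12, and 6 higher and 4 lower with the mixture. The shares called were 35.7%, 92.9% and 71.4%, against 24.3%, 46.6% and 63.9% of all tested genes. The 28.6% that were lower in the mixture were near the 31.9% of all tested genes. Cox6b2, the isoform of subunit VIb best known from testis, was at 1.05 and 1.64 CPM in Mock, 2.17 and 1.5 in NoEp, 2.51 and 2.47 in DRIL18, 3.33 and 3.55 in IL12 and 13.3 and 11.5 in the mixture. Its levels rose in the order Mock, DRIL18, IL12, mixture with no overlap between them, to 9.24-fold over Mock in the mixture (log2 3.21 ± 0.19, adjusted p 1.38e-15). The IL12 rise was 2.57-fold (1.36 ± 0.22, adjusted p 5.34e-06) and that of DRIL18 1.86-fold (0.90 ± 0.23, adjusted p 0.00347), the latter lost without Mock replicate 1 (0.60, adjusted p 0.121). In the mixture Cox6b2 remained a low transcript: the common isoform Cox6b1 was at 124 and 120 CPM there, against 118 and 118 in Mock (0.05 ± 0.04, adjusted p 0.29). Per kilobase of exon, the mean over all libraries was 3.88 CPM for Cox6b2 and 172 for Cox6b1.

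The genes of subunit VIIa moved apart. Cox7a2l, which joins complexes III and IV into supercomplexes, was at 231 and 222 CPM in NoEp, 199 and 199 in Mock, 201 and 202 in DRIL18, 178 and 181 in IL12 and 118 and 112 in the mixture. It was 1.74-fold lower than Mock in the mixture (-0.80 ± 0.04, adjusted p 1.34e-17) and lower with IL12 (-0.15 ± 0.04, adjusted p 0.00169), with the mixture below IL12 by -0.65 ± 0.04 (adjusted p 6.53e-15). It was also lower in Mock than in NoEp (-0.18 ± 0.04, adjusted p 0.00271), a call lost without NoEp replicate 1 (adjusted p 0.0608), Mock replicate 1 (0.0679) or Mock replicate 2 (0.054). Cox7a2, the widely expressed isoform, was at 71.9 and 61.5 CPM in Mock and 91.3 and 80.3 in the mixture (0.36 ± 0.06, adjusted p 5.27e-06). Its rise was 0.22 with DRIL18 and 0.22 with IL12, both lost without Mock replicate 2 (0.11 and 0.12, adjusted p 0.315 and 0.197). Cox7a1, the isoform of heart and muscle, had few counts: 1.27 and 1.07 CPM in Mock, 0.522 and 0.597 in IL12 and 0.438 and 0.622 in the mixture (-1.14 ± 0.36, adjusted p 0.00665). Its fall in the mixture missed the threshold without Mock replicate 1 (-1.01) and without mixture replicate 1 (-0.91). It also missed it with the mark bis as a covariate (-1.01, adjusted p 0.0967). Its fall in IL12 (-1.06 ± 0.36, adjusted p 0.0167) missed it without Mock replicate 1 (-0.93, adjusted p 0.106) and without IL12 replicate 1 (-0.97, adjusted p 0.0886).

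Cox5a and Cox5b, subunits on the matrix side of complex IV, were higher with IL12 and lower with the mixture. Cox5a was at 103 and 105 CPM in Mock, 107 and 103 in DRIL18, 143 and 144 in IL12 and 91.2 and 97.9 in the mixture. The IL12 libraries thus stood alone (0.47 ± 0.04 against Mock, adjusted p 2.39e-10), and the mixture lay below IL12 by -0.60 ± 0.04 (adjusted p 6.32e-13). Its small fall against Mock (-0.13 ± 0.05, adjusted p 0.0112) was lost without Mock replicate 2 (-0.11) and without mixture replicate 1 (-0.080). It was also lost with the mark bis as a covariate (-0.11, adjusted p 0.169). Cox5b, named after its values were seen as the partner of Cox5a, was at 153 and 156 CPM in Mock, 171 and 172 in IL12 and 130 and 128 in the mixture (-0.26 ± 0.04, adjusted p 3.13e-06). It was higher than Mock in IL12 by 0.15 ± 0.04 (adjusted p 0.00338).

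The other named members of complex IV moved little or rose. Cox7c rose in all cytokine mRNA groups, from 111 and 111 CPM in Mock to 132 and 134 in DRIL18, 144 and 145 in IL12 and 155 and 158 in the mixture (0.50 ± 0.05, adjusted p 1.84e-10). Cox4i1, the common isoform of subunit IV and the nuclear complex IV gene with the most CPM, was at 233 and 235 CPM in Mock, 263 and 256 in IL12 (0.15 ± 0.04, adjusted p 0.00263) and 235 and 224 in the mixture (-0.03 ± 0.04, adjusted p 0.533). Without scaling its IL12 call was lost (0.061, adjusted p 0.199) and the mixture was called lower (-0.088, adjusted p 0.0476). Cox8a was at 166 and 182 CPM in Mock, 207 and 208 in IL12 (0.25 ± 0.05, adjusted p 2.28e-05) and 179 and 186 in the mixture (0.07 ± 0.05, adjusted p 0.205), the latter called without Mock replicate 2 (0.14, adjusted p 0.0359). Cox6a1 rose with IL12 (0.21 ± 0.04, adjusted p 0.000162), from 174 and 172 to 199 and 201 CPM. Its rise in the mixture (0.11, adjusted p 0.0253) was lost without either Mock library or mixture replicate 2. It was also lost without scaling (0.054, adjusted p 0.283) and with the mark bis as a covariate (0.13, adjusted p 0.0916). Ndufa4 rose with DRIL18 (0.24 ± 0.05, adjusted p 0.00055) and with the mixture (0.16, adjusted p 0.0063). The mixture call was lost without mixture replicate 1 (0.090) and without scaling (0.10, adjusted p 0.0706).

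**Figure D3:**
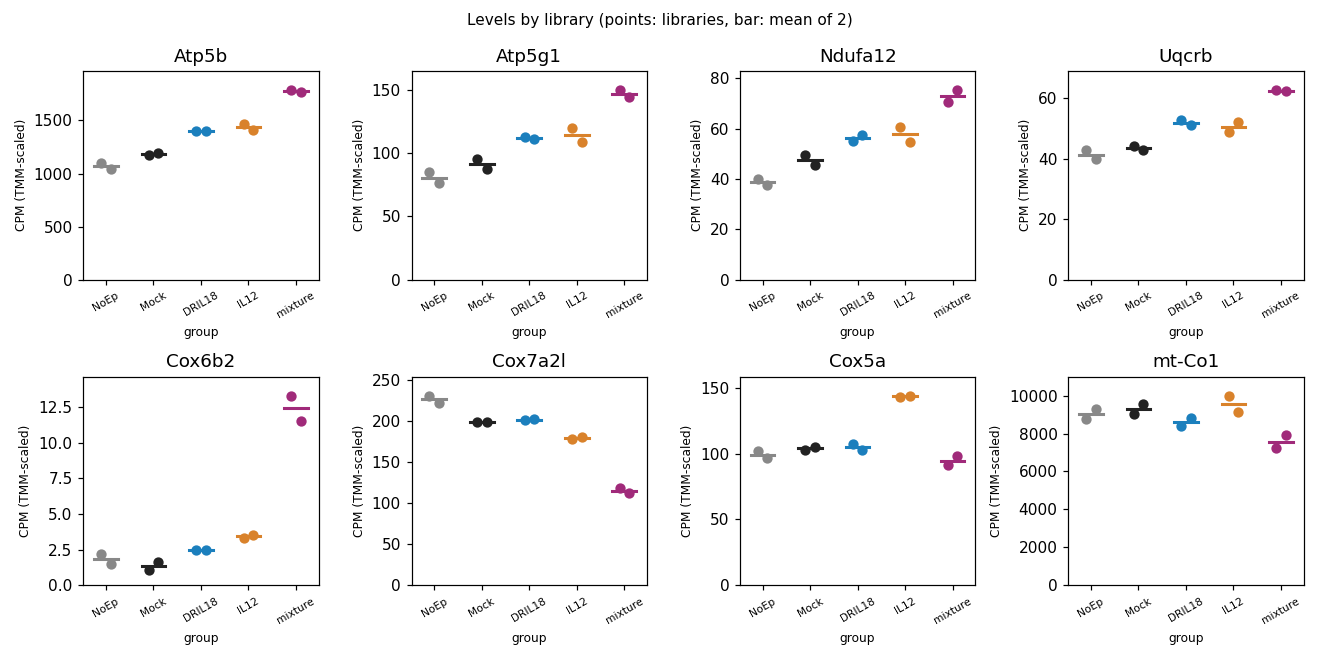
CPM on scaled library sizes (y axes from 0) of 8 members in each group (x axes); points are libraries and bars the mean of 2. Atp5b, Atp5g1, Ndufa12 and Uqcrb are highest in both mixture libraries, Cox6b2 stands at 13.3 and 11.5 CPM there, Cox7a2l falls to 118 and 112, Cox5a is highest in IL12, and mt-Co1 is lowest in the mixture.

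Complex V makes ATP. Of its 17 nuclear genes, 5 were higher with DRIL18, 12 with IL12 and 7 with the mixture, and 2 were lower, both with the mixture. The shares called were 29.4%, 70.6% and 52.9%, against 24.3%, 46.6% and 63.9% of all tested genes. In the mixture the share called was thus below that of all genes. Atp5b, the catalytic beta subunit, was the most abundant nuclear member, at 1100 and 1040 CPM in NoEp, 1170 and 1190 in Mock, 1400 and 1400 in DRIL18, 1470 and 1410 in IL12 and 1790 and 1770 in the mixture. The groups followed one another without overlap from NoEp to the mixture, which was 1.51-fold above Mock (0.60 ± 0.04, adjusted p 1.54e-15). DRIL18 lay 0.25 ± 0.04 above Mock (adjusted p 2.82e-06) and IL12 0.29 ± 0.04 above (adjusted p 5.35e-08), and the means of these 2 groups, 1400 and 1440 CPM, differed by less than the SD of IL12 (47.3 CPM).

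The c subunit, which forms the rotor ring, is encoded by 3 genes with the same mature protein, and they differed. Atp5g1 was at 95.0 and 87.5 CPM in Mock, 113 and 111 in DRIL18, 120 and 109 in IL12 and 150 and 144 in the mixture (0.69 ± 0.05, adjusted p 3.5e-13). Atp5g3 was at 213 and 194 CPM in Mock, 227 and 237 in DRIL18, 268 and 251 in IL12 and 277 and 238 in the mixture (0.34 ± 0.05, adjusted p 9.57e-07), so its IL12 and mixture libraries overlap. Its DRIL18 rise (0.19) was lost without Mock replicate 2 (0.13, adjusted p 0.202) and without DRIL18 replicate 2 (0.15, adjusted p 0.115). Atp5g2 was at 160 and 160 CPM in Mock and 168 and 156 in the mixture, and no cytokine mRNA group gave a call for it with all libraries (IL12 0.15, adjusted p 0.0147, without IL12 replicate 1). Of its 100-base words, 34.7% also occur in annotated transcripts of other genes, the highest share among nuclear members, so its counts are less certain.

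Atp5h, the d subunit of the peripheral stalk, fell in the mixture, from 167 and 166 CPM in Mock to 132 and 125 (-0.38 ± 0.04, adjusted p 4.36e-09). It was at 161 and 166 CPM in DRIL18 and 176 and 163 in IL12, both around the Mock level, and the mixture lay below IL12 by -0.40 ± 0.04 (adjusted p 2.38e-09). Atp5mpl, a small membrane subunit, was at 56.6 and 59.0 CPM in Mock, 67.9 and 67.7 in IL12 (0.23 ± 0.06, adjusted p 0.00161) and 53.4 and 48.4 in the mixture (-0.18 ± 0.06, adjusted p 0.00854). The fall was lost without Mock replicate 2 (-0.15), without mixture replicate 2 (-0.12) and with the mark bis as a covariate (-0.13, adjusted p 0.195).

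**Figure D4:**
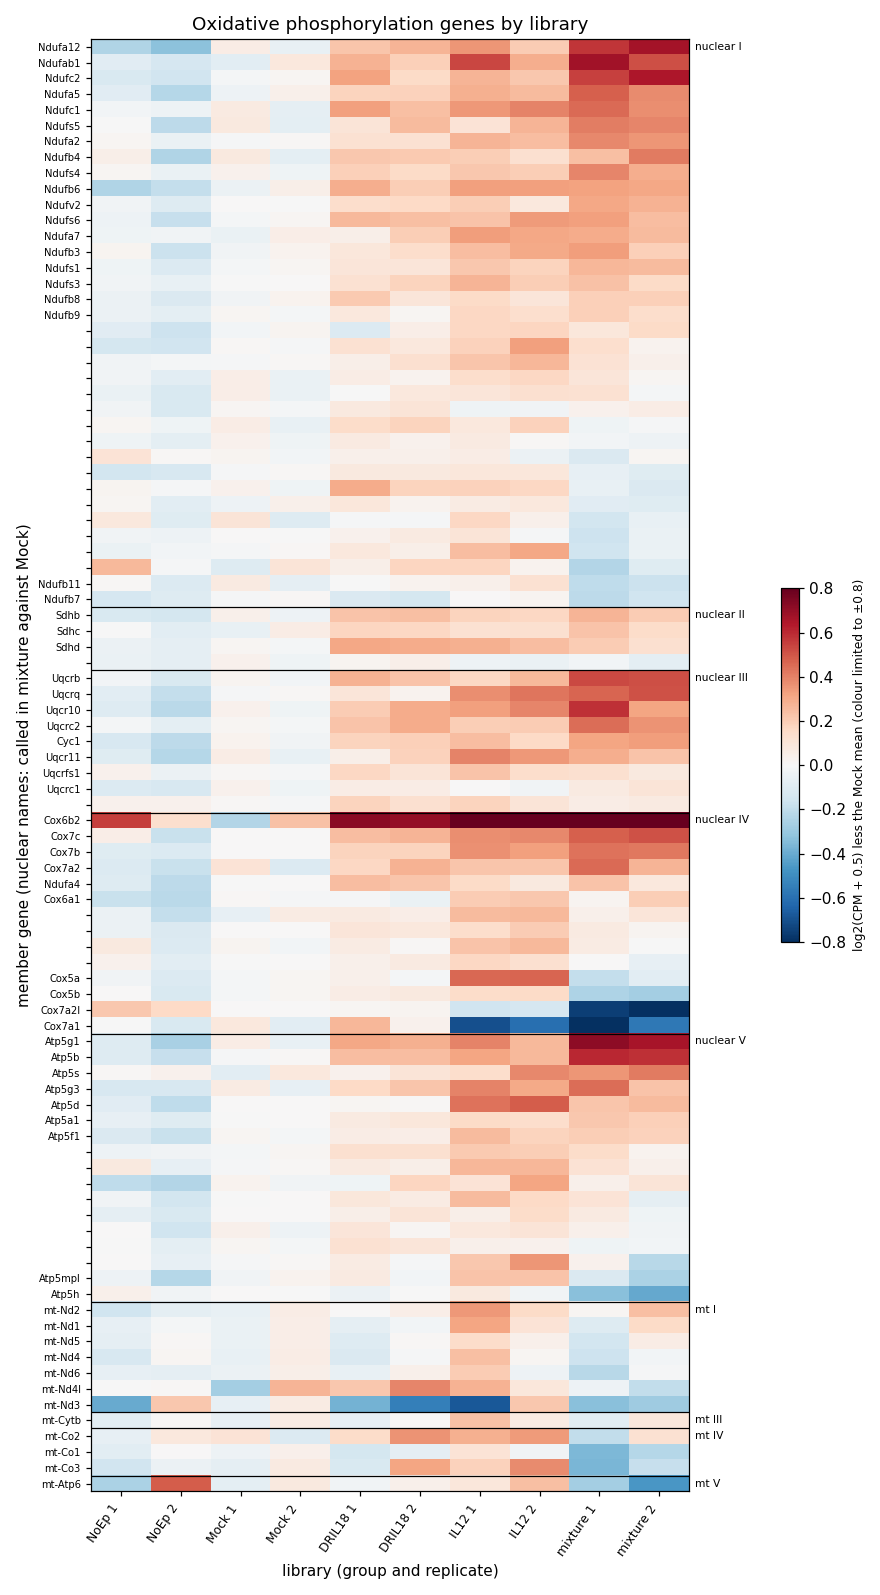
Log2(CPM + 0.5) of each of the 92 members (rows, by genome and complex, ordered within a complex by the mixture value) less its Mock mean, in each library (columns), with colours limited to ±0.8 and nuclear rows named where the gene was called in the mixture against Mock. Most nuclear rows are red in the 6 libraries with cytokine mRNA, and the mitochondrial rows vary between the libraries of a group. The rows of Cox7a2l, Cox5b and Atp5h are bluest in the mixture, and that of Cox7a1 is blue in both IL12 and the mixture.

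Mock and NoEp differ in electroporation, and no collection time is recorded here for NoEp. Electroporation and time in culture thus cannot be told apart between them. In Mock against NoEp, 11 nuclear members were higher and 1 lower, where 6.98% of all tested genes were called, 3.34% higher and 3.64% lower. The median was 0.075 against -0.004 over all tested genes, and of the mitochondrial members 0 were called by edgeR, DESeq2 or limma-voom (1 at an unadjusted p under 0.05 in edgeR). The 5 higher genes of complex V were Atp5k (0.22), Atp5g1 (0.18), Atp5f1 (0.15), Atp5d (0.15) and Atp5b (0.14), and the lower gene was Cox7a2l, all but Atp5g1, Atp5b and Cox7a2l named after their values were seen. This comparison was the least firm: the nuclear count was 1 without NoEp replicate 2, 0 without Mock replicate 1 and 4 without Mock replicate 2. The column names of both NoEp libraries, like those of both mixture libraries, carry the unexplained mark bis that neither Mock library carries. With this mark as a covariate 1 nuclear member was called in Mock against NoEp.

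The mixture was also compared with each single mRNA. Against DRIL18, 28 nuclear members were higher and 16 lower, where 57.3% of all tested genes were called, 28.3% higher and 29.0% lower. The nuclear median was 0.016, against -0.013 over all tested genes. Without scaling all tested genes had a median of -0.077, with 3845 higher and 5222 lower. The nuclear median was then -0.048, with 15 members higher and 30 lower. Without DRIL18 replicate 1 the count was 29. Against IL12, 16 nuclear members were higher and 26 lower, where 52.2% of all tested genes were called, 25.8% higher and 26.3% lower. Without scaling 22 nuclear members were higher and 22 lower, and all tested genes split into 4396 higher and 3865 lower. Of the mitochondrial members, none was higher in either comparison, 4 were lower against DRIL18 and 9 against IL12. Those counts were 1 without DRIL18 replicate 2 in the former and, in the latter, 5 without IL12 replicate 1 and 4 without mixture replicate 1.

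The test of the interaction asked whether the mixture differed from the sum of the DRIL18 and IL12 changes on the log2 scale. Of the nuclear members 1 was above the sum and 34 were below it, where 31.6% of all tested genes were called, 14.6% above and 17.1% below. Their median was -0.16 against -0.016 over all tested genes. Of the mitochondrial members 0 were above and 3 below, and 9 were called without IL12 replicate 2 or without mixture replicate 2. Below the sum were 12 of 36 nuclear genes in complex I, 2 of 4 in complex II, 3 of 9 in complex III, 8 of 14 in complex IV and 9 of 17 in complex V. Cox6b2 was the nuclear member above it (0.95 ± 0.29, adjusted p 0.0116), a call lost without Mock replicate 2 (0.59, adjusted p 0.231). The lowest nuclear values were those of Cox7a2l (-0.66 ± 0.05, adjusted p 2.84e-11) and Cox5a (-0.62 ± 0.06, adjusted p 2.65e-09). Sdhd was also below it (-0.40 ± 0.06, adjusted p 8.46e-07). For Atp5b (0.06 ± 0.05, adjusted p 0.4), Atp5g1 (0.07 ± 0.07, adjusted p 0.538), Ndufa12 (0.09 ± 0.08, adjusted p 0.431) and Uqcrb (0.05 ± 0.08, adjusted p 0.682), no departure from the sum was called.

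The mitochondrial members fell into 2 sets by their counts. mt-Co1, the catalytic subunit of complex IV, had 2956663 counts over the 10 libraries, mt-Cytb of complex III 932843, and the complex I genes mt-Nd1, mt-Nd5, mt-Nd2, mt-Nd4 and mt-Nd6 had 877643, 771285, 555203, 391429 and 219472. In contrast mt-Co2 and mt-Co3 of complex IV had 3544 and 2433 counts, mt-Atp6 of complex V 2068, and mt-Nd3 and mt-Nd4l 888 and 314. The genes with few counts were those with near-identical copies on chromosome 1. In GENCODE M21 (build GRCm38), 97.6% to 99.9% of the 100-base words of these 5 genes also occur in annotated transcripts of other genes. The share was 60.8% for mt-Nd4, 30.8% for mt-Co1, 3.2% for mt-Nd2 and 0.0% for mt-Nd1, mt-Nd5, mt-Nd6 and mt-Cytb.

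The copies are unprocessed pseudogenes on the minus strand of chromosome 1, among them Gm28661 (chr1:24614885-24615565) for mt-Co2, Gm10925 (chr1:24613974-24614651) for mt-Atp6, Gm28437 (chr1:24613189-24613971) for mt-Co3, Gm28438 (chr1:24612775-24613119) for mt-Nd3 and Gm10222 (chr1:24612407-24612700) for mt-Nd4l. Over the aligned bases the first 3 and the last had no mismatch, and Gm28438 had 1 in 345. The copies themselves had 2579, 2459, 1904, 1080 and 723 counts in the same order. No source used here says how reads with several alignments were counted, so the counts of these 5 genes are uncertain. The part of the shared sequence in their few counts was not tested. mt-Atp8, below the count minimum, had 26 counts, and 0.0% of its words occurred in annotated transcripts of other genes. Genome sequence outside annotated transcripts was not searched, so a copy of mt-Atp8 there would have been missed. Bases 352 to 431 of mt-Co3 and of its copy show the identity, with no base in capitals because none differs:
mt-Co3: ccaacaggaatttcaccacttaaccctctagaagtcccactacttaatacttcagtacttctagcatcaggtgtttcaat
Gm28437: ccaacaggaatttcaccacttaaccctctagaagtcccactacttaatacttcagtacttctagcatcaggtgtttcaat

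**Figure D5:**
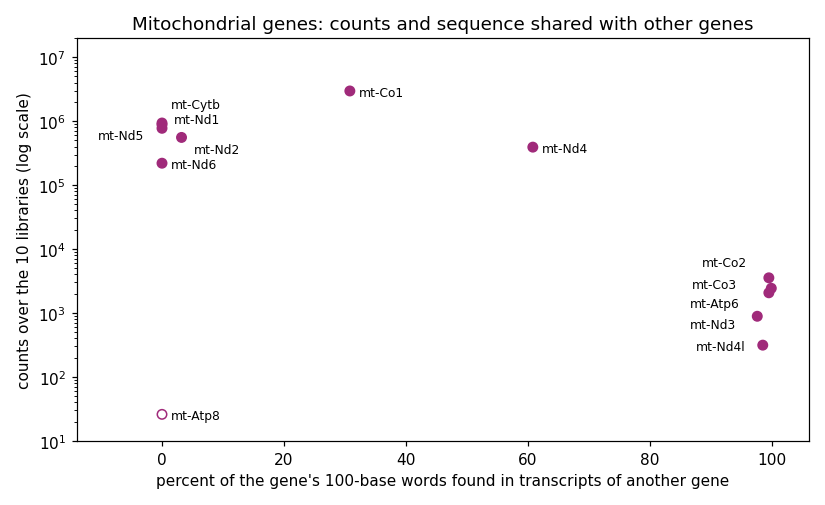
Counts summed over the 10 libraries (y axis, log scale) of the mitochondrial subunit genes against the percent of each gene's 100-base words that also occur in annotated transcripts of another gene (x axis); filled points are members and the open point is mt-Atp8, below the count minimum. The 5 members at 97.6% or more have 314 to 3544 counts and the other 7 have 219472 or more.

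Over the 7 mitochondrial members with a lower share of shared sequence, 4 were higher and none lower with IL12 (median 0.13), and 1 was higher and 1 lower with the mixture (median -0.042). mt-Co1, by far the most abundant member, was at 9030 and 9540 CPM in Mock, 8420 and 8840 in DRIL18, 10000 and 9120 in IL12 and 7220 and 7920 in the mixture. Its DRIL18 value (-0.11, adjusted p 0.0703) was past the threshold with the replicate block (adjusted p 0.0335), limma-voom (0.0322) and 7 other alternatives. Both mixture libraries were below every other library (-0.29 ± 0.04 against Mock, adjusted p 4.19e-07). Against IL12 the mixture was lower by -0.34 ± 0.04 (adjusted p 5.73e-08). The departure from the sum of the single changes was -0.23 ± 0.06 (adjusted p 0.00327), a call that DESeq2 did not make (adjusted p 0.0834).

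With all libraries and TMM scaling, 0 of the mitochondrial complex I genes passed the test as lower in the mixture against Mock. Without scaling mt-Nd4 (-0.15, adjusted p 0.0177) and mt-Nd6 did, as they did with no filter, and without mixture replicate 2 mt-Nd4 (-0.17, adjusted p 0.0175), mt-Nd5 and mt-Nd6 did. mt-Nd2 was at 1520 and 1650 CPM in Mock, 2010 and 1760 in IL12 and 1600 and 1870 in the mixture. It rose with IL12 (0.25 ± 0.05, adjusted p 0.000274), while its rise in the mixture (0.13, adjusted p 0.0325), where the libraries overlap with Mock, was lost without Mock replicate 1 (0.073, adjusted p 0.386) or mixture replicate 2 (0.015, adjusted p 0.837), without scaling and with DESeq2. mt-Nd1 was at 2470 and 2650 CPM in Mock, 3180 and 2760 in IL12 and 2380 and 2850 in the mixture, where it was called without mixture replicate 1 (0.16, adjusted p 0.0104). It rose with IL12 (0.22 ± 0.06, adjusted p 0.00183), as did mt-Cytb (0.15, adjusted p 0.0121) and mt-Nd4 (0.13, adjusted p 0.0486). The rises of mt-Nd1, mt-Cytb and mt-Nd4 were lost without Mock replicate 1 or IL12 replicate 1, without scaling and with DESeq2, and that of mt-Nd4 also without DRIL18 replicate 1. In IL12 replicate 1 the median of these 7 genes, on the log2(CPM + 0.5) scale, was 0.24 above the Mock mean, and in replicate 2 it was 0.043 above. In the mixture it was -0.15 and 0.057.

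With all libraries, mt-Nd5 and mt-Nd6 did not pass the test against Mock in any cytokine mRNA group. mt-Nd5 was at 2220 and 2390 CPM in Mock and 2080 and 2400 in the mixture, and mt-Nd6 at 643 and 685 and at 568 and 659. Without mixture replicate 2 both were called lower in the mixture, mt-Nd5 by -0.15 (adjusted p 0.012, against -0.042 with all libraries) and mt-Nd6 by -0.23 (adjusted p 0.0018, against -0.11). The mt-Nd6 value was also called without scaling (-0.17, adjusted p 0.00821), with no filter and without either IL12 library. Without IL12 replicate 2 both were called higher with IL12 (0.15 and 0.21, adjusted p 0.0245 and 0.00149), and both also with no filter. mt-Nd5 was called with IL12 without Mock replicate 2 as well (0.16, adjusted p 0.0491) and with only the groups compared. mt-Nd6 is encoded on the other strand of mitochondrial DNA than the other members. No source used here gives the strand setting of the counting, so its reads and antisense reads cannot be told apart. Both were lower in the mixture than in IL12, mt-Nd5 by -0.14 ± 0.05 (adjusted p 0.0211) and mt-Nd6 by -0.20 ± 0.06 (adjusted p 0.00366), and both calls were lost without IL12 replicate 1, without mixture replicate 1 and with DESeq2.

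Among the 5 members with copies, mt-Co2 was at 10.5 and 8.95 CPM in Mock, 11.9 and 12.4 in IL12 and 8.38 and 10.6 in the mixture. It rose with IL12 (0.32 ± 0.12, adjusted p 0.0238), a call lost without Mock replicate 2 or IL12 replicate 2, without scaling (0.24, adjusted p 0.101), with DESeq2 (adjusted p 0.0588) and with the mark bis as a covariate (0.25, adjusted p 0.126). mt-Co3 was at 6.79 and 7.58 CPM in Mock, 6.55 and 9.04 in DRIL18, 8.23 and 9.46 in IL12 and 5.46 and 6.25 in the mixture. With all libraries no group was called against Mock (mixture -0.30, adjusted p 0.0742). The mixture was called lower with the replicate block (-0.30, adjusted p 0.0475), without scaling (-0.35, adjusted p 0.0339) and with the mark bis as a covariate (-0.63, adjusted p 0.00415), and IL12 was called higher without IL12 replicate 1 (0.40, adjusted p 0.0443). The departure from the sum of the single changes was -0.71 ± 0.20 (adjusted p 0.00558), lost without DRIL18 replicate 2 (-0.46, adjusted p 0.099). mt-Atp6 was at 5.77 and 6.48 CPM in Mock and 4.99 and 4.30 in the mixture (-0.40 ± 0.18, adjusted p 0.0488), a call lost without either Mock library, either DRIL18 library or mixture replicate 2, with DESeq2 size factors (adjusted p 0.0548), with DESeq2 (0.105), with limma-voom (0.0711) and with bis as a covariate (0.0796). mt-Nd3, at 1.73 to 3.65 CPM, and mt-Nd4l, at 0.622 to 1.27 CPM, were not called in any comparison with all libraries and groups in the fit. mt-Nd3 was called with DRIL18 when only the groups compared were fitted (-0.55, adjusted p 0.0439). It was also called with IL12 (-0.83, adjusted p 0.0189) and in the interaction (1.01, adjusted p 0.0346) without IL12 replicate 2, and in the mixture against IL12 without IL12 replicate 1 (-0.62, adjusted p 0.042).

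The genes around the pathway were counted from lists. Over all tested genes 32.0% were higher and 31.9% lower in the mixture (median -0.002), 23.0% and 23.6% with IL12 (-0.007), and 12.2% and 12.1% with DRIL18 (0.004). The assembly factors of complex I gave 11 higher and 2 lower of 17 tested in the mixture, 3 and 0 with IL12 and 2 and 0 with DRIL18. The list was thus called in 17.6% with IL12 and 11.8% with DRIL18, below the 46.6% and 24.3% of all tested genes. In the mixture 76.5% of it was called, against 63.9% of all tested genes. Ndufaf4 was higher by 0.83 ± 0.08 (adjusted p 8.96e-11) and Timmdc1 by 0.46, and Tmem126b was lower by -0.46 ± 0.08 (adjusted p 6.4e-06). The assembly factors of complexes II to V gave 15 higher and 2 lower of 31 in the mixture, led by the copper chaperone Sco1 (1.03 ± 0.08, adjusted p 1.79e-12), Sdhaf1 (0.99) and Cox11 (0.82). That is 54.8% of the list called in the mixture, below the 63.9% of all tested genes. With IL12 the counts were 7 higher and 1 lower, 25.8% of the list, and with DRIL18 8 and 0, also 25.8%. The medians of these lists in the mixture were 0.26 and 0.22.

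Cytochrome c (Cycs), which shuttles electrons between complexes III and IV, was at 71.4 and 70.1 CPM in Mock, 101 and 98.4 in DRIL18, 131 and 129 in IL12 and 188 and 173 in the mixture. Its groups rose in that order without overlap (1.35 ± 0.05 in the mixture, adjusted p 3.46e-21), and no departure from the sum of the single changes was called (-0.02 ± 0.07, adjusted p 0.836). Of 12 genes of this list, which otherwise make ubiquinone, 10 were higher and 1 lower in the mixture, among them Coq4 (1.22 ± 0.13, adjusted p 1.38e-09) and Pdss2 (0.59). With IL12 5 were higher and 1 lower, and with DRIL18 1 was higher. Of 8 tested genes that carry ATP, phosphate or other ions, 6 were higher and 1 lower in the mixture. That is 87.5% called, against 63.9% of all tested genes. The ADP/ATP carrier Slc25a4 rose by 0.51 ± 0.04 (adjusted p 9.35e-13) and the outer membrane channel Vdac2 by 0.50. The proton carrier Ucp2 fell by 0.48 on the log2 scale (adjusted p 2.36e-13).

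Genes that copy and translate mitochondrial DNA were counted next. Of 26 genes for its transcription, replication and RNA handling, 15 were higher and 3 lower in the mixture, 8 and 2 with IL12 and 5 and 0 with DRIL18. With IL12 and DRIL18 38.5% and 19.2% of this list were called, below the shares of all tested genes, and 69.2% in the mixture against 63.9%. The elongation factor Tefm was at 6.11 and 6.54 CPM in Mock and 11.8 and 11.4 in the mixture (0.88 ± 0.12, adjusted p 2.06e-07), Fastkd2 rose by 0.79 and Tbrg4 by 0.78. Of 77 tested mitochondrial ribosomal protein genes, 59 were higher and 4 lower in the mixture (median 0.35). With IL12 51 were higher and 0 lower (median 0.22), and with DRIL18 32 and 0 (median 0.15). In the same order 81.8%, 66.2% and 41.6% were called, against 63.9%, 46.6% and 24.3% of all tested genes. Mrps10 was at 26.9 and 25.7 CPM in Mock and 60.0 and 57.6 in the mixture (1.16 ± 0.06, adjusted p 5.84e-17), Mrps18b rose by 1.12 and Mrpl45 by 1.00. The mitochondrial ribosomal RNAs went the other way: mt-Rnr1 was at 267 and 295 CPM in Mock and 166 and 164 in the mixture (-0.77 ± 0.04, adjusted p 8.04e-17), and mt-Rnr2 at 631 and 671 and at 506 and 496 (-0.38 ± 0.04, adjusted p 1.5e-09). The library kit selects polyadenylated RNA, which limits what it shows of ribosomal RNA.

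Of 23 tested genes of the citric acid cycle and pyruvate dehydrogenase, 12 were higher and 5 lower in the mixture, 8 and 4 with IL12 and 11 and 0 with DRIL18. The shares called were 73.9%, 52.2% and 47.8%, against 63.9%, 46.6% and 24.3% of all tested genes. Pdk2, a kinase that inactivates pyruvate dehydrogenase, was at 5.29 and 5.92 CPM in Mock, 3.0 and 2.61 in IL12 and 1.34 and 1.24 in the mixture (-2.11 ± 0.19, adjusted p 2.15e-11). Idh2, the NADP-linked isocitrate dehydrogenase, was at 51.1 and 48.3 CPM in Mock, 71.5 and 68.5 in DRIL18, 23.9 and 23.8 in IL12 and 27.5 and 26.7 in the mixture. It was thus higher with DRIL18 (0.49 ± 0.05, adjusted p 1.65e-08) and lower with IL12 and the mixture (-1.06 ± 0.06 and -0.88 ± 0.06). Dlst, of the 2-oxoglutarate dehydrogenase complex, rose by 0.59 in the mixture. Of 10 tested nuclear regulators, 4 were higher and 4 lower in the mixture, 3 and 3 with IL12 and 3 and 1 with DRIL18. Myc, which drives growth and mitochondrial genes, was at 145 and 147 CPM in Mock, 177 and 192 in DRIL18, 255 and 269 in IL12 and 323 and 343 in the mixture (1.19 ± 0.04, adjusted p 3.33e-21). Pprc1, a coactivator of the PGC-1 family, rose by 0.79 and Creb1 fell by 0.60 on the log2 scale.

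The promoters of the nuclear members were read from RefSeq windows (GRCm38.p6) of 250 bases before to 50 after a gene's start. A window was found for 67 of the 80, and several genes have more than 1 start, which gave 72 windows. The letters GCGCATGCG, most of the palindromic site of NRF1, a factor known for controlling respiratory genes, occurred in 11.1% of these windows and in 1.75% of all 32851 windows. CCGGAAG, the core of the ETS family that includes GABP, occurred in 22.2% against 8.86%, AAGATGGC, the site of YY1, in 13.9% against 2.75%, and TGACGTCA, the cAMP response element, in 5.56% against 1.79%, on either strand. The transcript of Nrf1 was at 81.0 and 81.5 CPM in Mock and 87.8 and 91.3 in the mixture (0.14 ± 0.05, adjusted p 0.0107), and that of Gabpa at 102 and 107 and at 101 and 105 (-0.03 ± 0.04, adjusted p 0.602). Both were named after their values were seen, as the factors of these letters. A match is a description of the letters and not a binding site.

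The 170 bases before the start are shown for 5 members, on the strand of the gene: Cox6a1 and Atp5k as examples that hold the NRF1 letters, and Cox6b2, Cox7a2l and Atp5g1 because they moved far in the mixture. Capitals mark the NRF1 letters, which here match on both strands and overlap into a longer run, and, in Cox6a1, the ETS letters on the reverse strand. The last 3 hold neither within these bases. The genes lie on the minus strand, at chr5:115348959-115349128 (Cox6a1), chr5:108434400-108434569 (Atp5k), chr7:4753095-4753264 (Cox6b2), chr17:83514334-83514503 (Cox7a2l) and chr11:96075632-96075801 (Atp5g1).
Cox6a1: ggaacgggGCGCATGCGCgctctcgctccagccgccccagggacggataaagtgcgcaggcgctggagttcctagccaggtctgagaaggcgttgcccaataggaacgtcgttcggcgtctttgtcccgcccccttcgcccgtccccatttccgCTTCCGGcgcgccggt
Atp5k: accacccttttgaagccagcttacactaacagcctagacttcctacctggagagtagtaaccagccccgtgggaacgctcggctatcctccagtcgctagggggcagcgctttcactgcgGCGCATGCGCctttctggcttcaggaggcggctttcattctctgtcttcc
Cox6b2: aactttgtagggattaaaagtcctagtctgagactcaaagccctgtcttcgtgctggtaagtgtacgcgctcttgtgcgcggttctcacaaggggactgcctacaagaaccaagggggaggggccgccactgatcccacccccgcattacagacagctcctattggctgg
Cox7a2l: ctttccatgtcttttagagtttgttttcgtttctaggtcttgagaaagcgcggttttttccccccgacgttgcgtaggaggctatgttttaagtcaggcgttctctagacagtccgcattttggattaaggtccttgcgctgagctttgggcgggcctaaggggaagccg
Atp5g1: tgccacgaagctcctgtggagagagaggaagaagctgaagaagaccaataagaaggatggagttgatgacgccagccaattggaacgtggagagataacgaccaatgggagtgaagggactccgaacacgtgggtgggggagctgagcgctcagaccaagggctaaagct
Of the first 2, Cox6a1 was at 174 and 172 CPM in Mock and 176 and 198 in the mixture, and Atp5k rose with IL12 (0.22).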

How the data were processed

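Bulk mRNA libraries (TruSeq Stranded mRNA kit, per the labels' protocols) of 5 groups with 2 libraries each were analysed. The authors deposited raw counts per gene, whole numbers without scaling. Per the submitters' processing notes, STAR 2.7.9, featureCounts, edgeR and limma were used with the build mm39. No source used here gives the annotation release, the strand setting or the handling of reads with several alignments. The second deposited table, of log2 CPM, was not used here.

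Columns were matched to samples by group name and replicate number in the column name, with NE read as NoEp. Symbols came from GENCODE M21 (GRCm38), by identifier without its version: 52083 of 55359 matched and 3276 did not. Since builds differ, its sequences served only for the shares of 100-base words and the pseudogenes. Of 121 identifiers whose symbols matched the rule, 9 marked as pseudogenes, 8 assembly factors and 12 below 100 counts were left out.

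All 10 libraries were fitted in edgeR 4.0.16 (R 4.3.3) with 5 group means, TMM scaling (factors 0.9547 to 1.0272) and filterByExpr, which left 15777 genes. P-values of the quasi-likelihood test were adjusted over all of these genes (Benjamini-Hochberg), at a threshold of 0.05. SE is that of the log2 fold change. Totals of 31281944 to 35062545 counts and a common coefficient of variation of 3.39% beyond counting set the precision. Alternatives were a replicate block, DESeq2 size factors, no scaling, scaling without mt- genes, no filter, DESeq2 1.42.0, limma-voom (limma 3.58.1), the mark bis as a covariate, only the groups compared, and each library left out. Shares were also computed on scaled sizes and with no count minimum.

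Members and lists were chosen with earlier results of these data known. Named are all mt- members, the 2 highest and 2 lowest called nuclear members of each complex in the mixture against Mock, the most abundant of each complex, called members with a log2 fold change of at least 1 in size, the 5 largest interactions, isoform pairs, and the 3 most changed genes of each other list. A result that this rule would name is not reported here.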

Additional observations from a re-analysis of the deposited data

Results flagged for a closer look

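Among members past the interaction test, 5 had mixture changes that differed most in size from the sum of the DRIL18 and IL12 changes. The differences on the log2 scale were 0.95 for Cox6b2, -0.71 for mt-Co3, -0.66 for Cox7a2l, -0.62 for mt-Co2 and -0.62 for Cox5a. Their adjusted p-values (edgeR) were 0.0116, 0.00558, 2.84e-11, 0.00398 and 2.65e-09. The value of Cox6b2 was 0.59 without Mock replicate 2 and that of mt-Co3 -0.46 without DRIL18 replicate 2, and neither then passed the test. mt-Co2 and mt-Co3 have near-identical copies on chromosome 1, so their counts are uncertain.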

How the results depend on the processing

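No member named changed sign past the threshold under any alternative run. For nuclear members called, the counts by leaving out each library ran from 0 to 14 for Mock against NoEp (12 with all libraries), 16 to 33 for DRIL18 (32), 50 to 59 for IL12 (59), 43 to 50 for the mixture (50), 29 to 44 for the mixture against DRIL18 (44), 32 to 41 for the mixture against IL12 (42) and 25 to 36 for the interaction (35). Mock against NoEp gave 1 with the mark bis as a covariate and 20 with only the groups compared. For mitochondrial members the ranges were 0 to 0 (0), 0 to 1 (0), 2 to 8 (5), 1 to 4 (3), 1 to 6 (4), 4 to 9 (9) and 2 to 9 (3) in the same order. The interaction count of 9 came without IL12 replicate 2 and without mixture replicate 2. Other counts of mitochondrial members that moved were 1 with no filter and 1 with only the groups compared for Mock against NoEp, and 1 with the replicate block, 1 with no filter, 1 with limma-voom and 3 with only the groups compared for DRIL18. IL12 gave 1 without scaling and 1 with DESeq2, the mixture 5 without scaling, 5 with no filter and 1 with DESeq2. The mixture gave 7 with no filter and 2 with DESeq2 against DRIL18, 4 with DESeq2 against IL12, and the interaction 9 with no filter. On scaled library sizes the nuclear shares were 0.928% in Mock, 1.01% in DRIL18, 1.06% in IL12 and 1.06% in the mixture. Over all filtered genes, deviations of same-numbered replicates correlated weakly: 0 of 10 pair correlations exceeded 0.1 (-0.036 to 0.057). Such weak correlations over many genes cannot exclude a pairing by number. The nuclear share of counts was higher in replicate 1 than in replicate 2 in every group. The mitochondrial share was higher in replicate 2 in every group but IL12. With the replicate block 50 nuclear and 4 mitochondrial members were called in the mixture against Mock. For members with few counts, such as Cox7a1 and mt-Nd4l, depth limits what can be detected.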
